A study of Mus musculus with 9 samples.

Results

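The nuclear genes whose symbols mark subunits of the 5 oxidative phosphorylation complexes were followed in mouse thyroid. They were taken from the count table by symbol: names beginning Nduf with a letter a, b, c, s or v and a number, Sdha to Sdhd, names beginning Uqcr, Cyc1, names beginning Cox with a number from 4 to 8 and a letter, and names beginning Atp5. The patterns matched 88 symbols, and Cox7a1, Cox8b and Atp5l-ps1 were left out by the rule, which leaves 85 of the 33924 named genes. Complex I had 37 members, complex II 4, complex III 9, complex IV 17 and complex V 18. In 7 of them only the symbol gives the place. Cox4nb is named for lying next to Cox4i1 and encodes a protein of the endoplasmic reticulum, Ndufa4 was found in complex IV in later work, Cox7a2l is a supercomplex assembly protein, and Ndufa4l2, Atp5l2, Atp5s and Atp5sl are paralogs or companions of subunits.

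RNA sequencing had been carried out on thyroid tissue from mice in 3 groups of 3 libraries: wild type, Arid2 KO and Smarcb1 KO. Both genes encode parts of SWI/SNF chromatin remodellers: Arid2 a subunit of the PBAF form, Smarcb1 a core subunit. The comparisons ask how thyroid transcripts differ when either subunit is deleted. Strain, age, sex, Cre driver and further alleles are not in the labels. Nor do they state that each library is its own animal, and the spread behind the p-values may therefore be technical. The targeted genes do not settle the labels: Arid2 stood at 59.9 to 94.6 CPM (counts scaled to library size by TMM) in Arid2 KO and at 67.8 to 74.96 in wild-type libraries, and Smarcb1 at 47.5 to 59.4 CPM in Smarcb1 KO and at 65.9 to 71.7 in wild-type libraries. The log2 fold changes were 0.13 (SE 0.16) for Arid2 and -0.36 (SE 0.11) for Smarcb1, with edgeR adjusted p = 0.745 and 0.0651. A whole-gene count cannot show the loss of a few exons or of a gene in some of the cells, so the groups are called Arid2-labelled and Smarcb1-labelled.

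Oxidative phosphorylation takes place in the inner membrane of mitochondria. Complexes I and II pass electrons from NADH and succinate to coenzyme Q, complex III passes them on to cytochrome c, and complex IV hands them to oxygen. Complexes I, III and IV pump protons as they work, and complex V, the ATP synthase, lets the protons flow back to make ATP. A few core subunits are encoded in mitochondrial DNA, and most subunits, including the many small ones without redox centres called supernumerary, are encoded in the nucleus. Thyroid follicular cells use mitochondrial ATP for iodide uptake and the making of thyroglobulin.

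Total counts ran from 33666251 to 34045321 per library in wild type and from 38644867 to 41362640 in Smarcb1-labelled libraries. In Arid2-labelled libraries they ran from 61179297 to 89553766, so depth cannot be told apart from that group. Follicular cell markers, among them Tg, Tshr, Pax8, Nkx2-1, Foxe1 and Duox2, were present in every library, with Tg the highest at 225700 to 321300 CPM, and Slc26a4 stood under 0.43 CPM throughout. Markers of other cell types were present too. Ucp1, the uncoupling protein of brown fat, a tissue dense in mitochondria, measured 77.4, 85.4 and 691 CPM in wild type, 222, 299 and 494 in Arid2-labelled and 27.4, 149 and 125 in Smarcb1-labelled libraries. Pth, which encodes parathyroid hormone, was measured at 1199, 4172 and 0.0297 CPM in wild type, 1532, 1436 and 0.128 in Arid2-labelled and 16750, 5892 and 9307 in Smarcb1-labelled libraries. Wild-type replicate 3 and Arid2-labelled replicate 3 were thus the highest in Ucp1 and nearly without Pth, and the Smarcb1-labelled libraries were the highest in Pth. Fewer cells of a type and less RNA per cell cannot be told apart in bulk tissue. Thymocyte markers were high in 2 libraries, with summed levels of 961 CPM (Arid2-labelled replicate 1) and 142 CPM (Smarcb1-labelled replicate 2), against at most 2.88 CPM in the others.

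Transcripts of 16 subunits fell in Smarcb1-labelled thyroid, and those of 0 rose. A gene was called at an adjusted p under 0.05 (edgeR quasi-likelihood test with Benjamini-Hochberg adjustment over all 17079 genes tested). The 16 were 19.5% of the 82 members tested, and 5.74% of all genes tested were called lower and 2.15% higher. They were Ndufs7, Ndufa2, Ndufa7, Ndufa11, Ndufa12, Ndufa13, Ndufb6 and Ndufb7 of complex I, Uqcrq, Uqcr10 and Uqcr11 of complex III, Cox5a, Cox6a1 and Cox8a of complex IV, and Atp5d and Atp5l of complex V. The members' median log2 fold change was -0.29, against 0.05 over all genes tested, and 73 of the 82 values were negative. In 36 members, 43.9%, all 3 Smarcb1-labelled libraries lay below all 3 wild-type libraries, which held for 16.7% of all genes tested. An unadjusted p under 0.05 was found for 33 of the 82 members and for 4850 of the 17079 genes. The DESeq2 Wald test called 25 members lower and 1 higher. These were 31.7% of the members tested, against 16.3% of all genes called in either direction. The higher one was Atp5s, at 0.43 with DESeq2 and 0.45 with edgeR. The 9 lower ones beyond the 16 were Ndufv1, Ndufs8, Ndufa4l2, Ndufb8, Ndufb11, Cox4i1, Cox4nb, Cox5b and Atp5g2. Calls in what follows are those of edgeR unless DESeq2 is named. In the Arid2-labelled libraries 0 of 82 members were called by edgeR and 0 by DESeq2. Of all genes tested, edgeR called 0.556% in either direction there and DESeq2 5.2%.

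**Figure D1:**
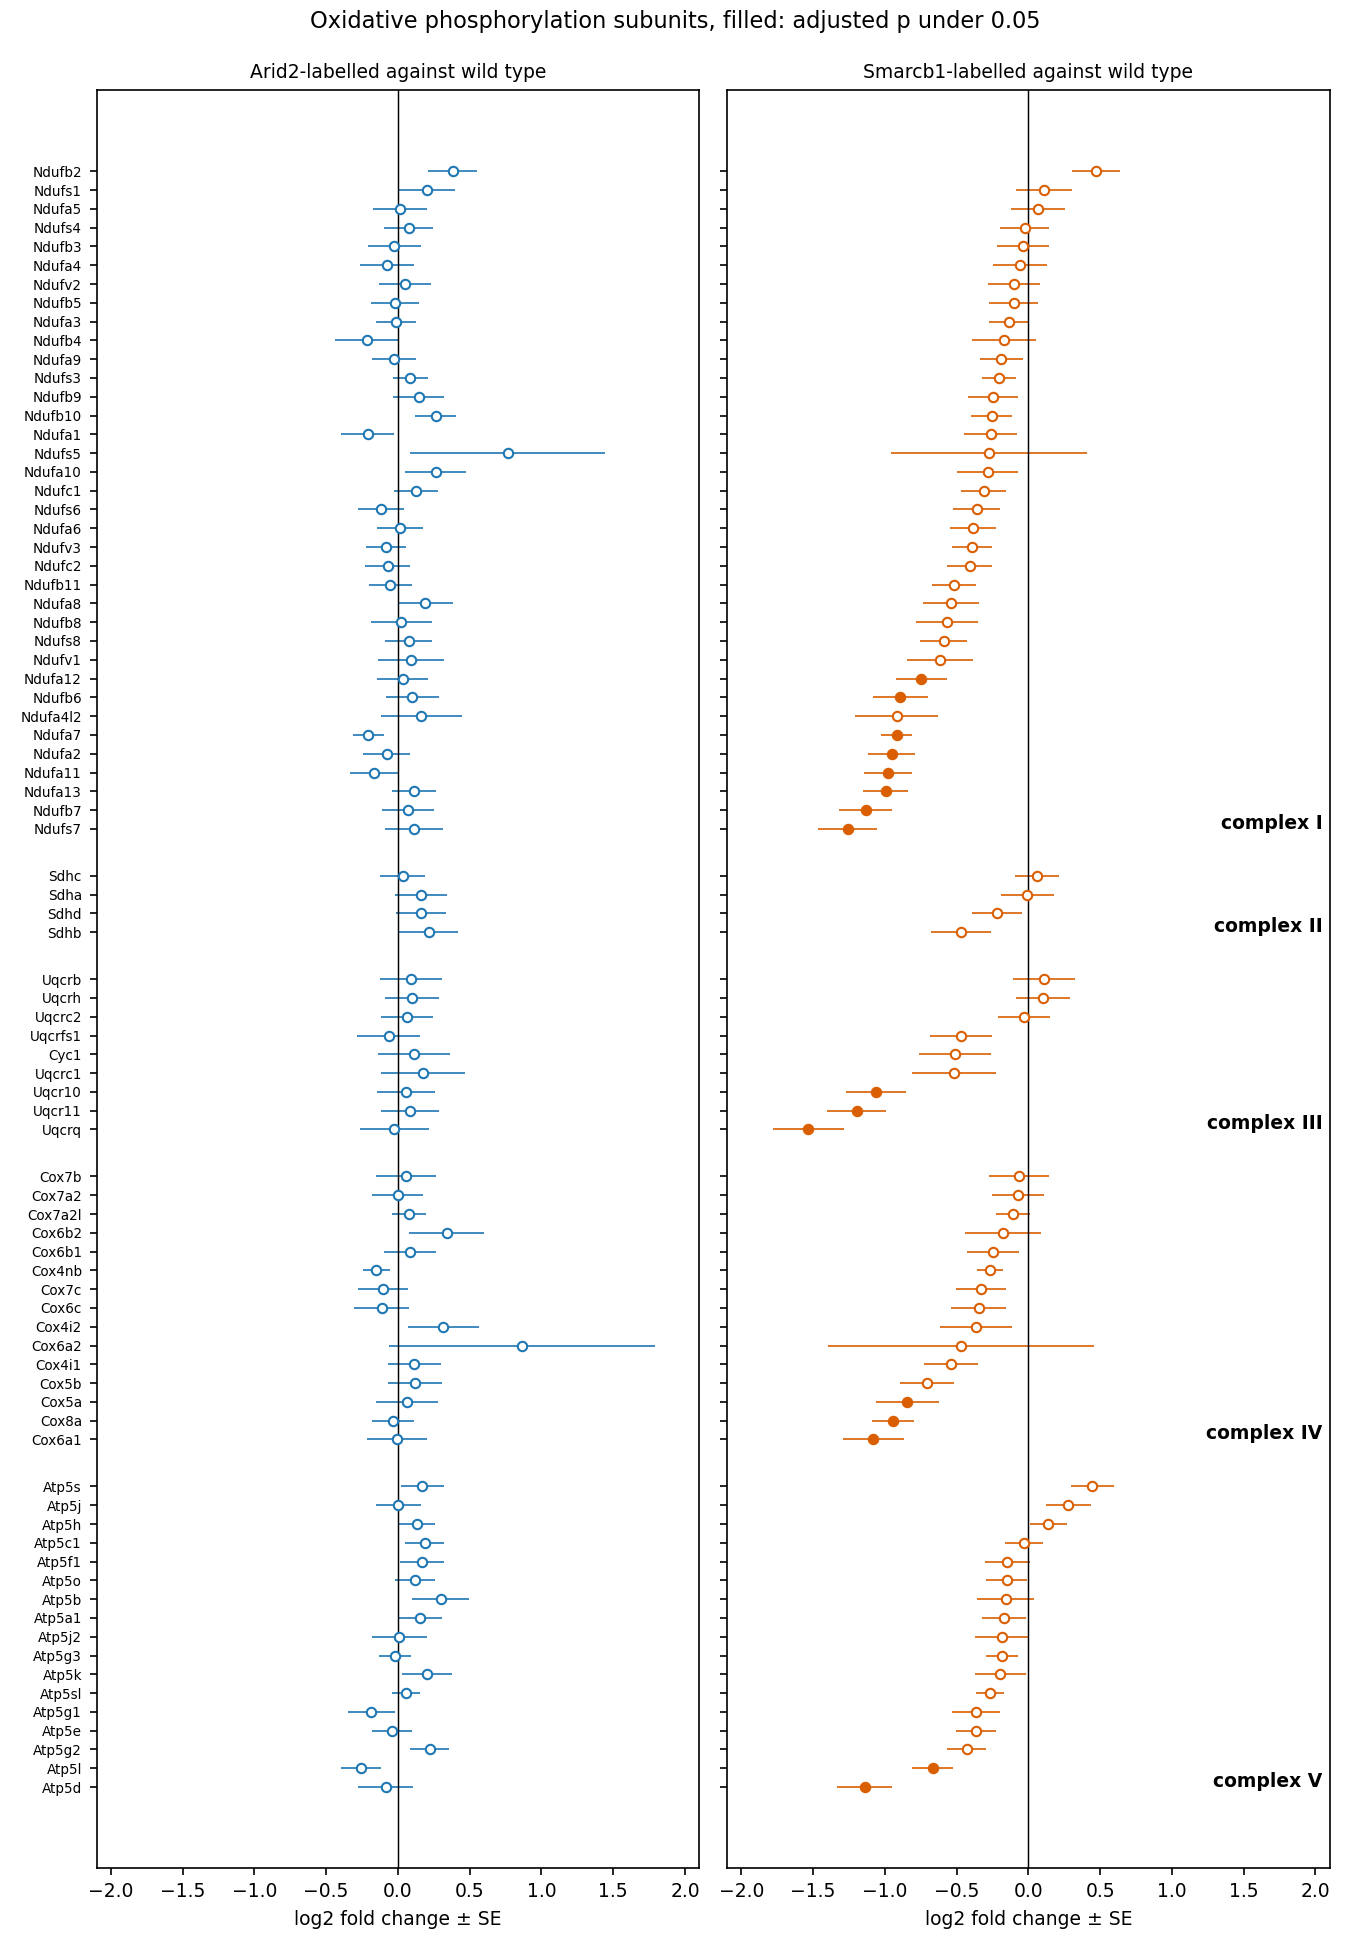
Log2 fold change (x axis, bars ± SE of the fit) of 81 of the 82 members tested, grouped by complex and ordered within each by the Smarcb1-labelled value, for Arid2-labelled (left) and Smarcb1-labelled (right) against wild type. Filled points passed an adjusted p of 0.05, which 16 did on the right and 0 on the left.

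The promoters of 3 of the called members are shown because nuclear subunit genes share some promoter motifs and these 3 differ in how many they hold. Each is the 250 bases before the annotated start on the gene's own strand, from RefSeq on GRCm38.p6, with motif matches in capitals. Cox6a1 lies on the minus strand at chr5:115348959-115349208, Uqcr11 on the minus strand at chr10:80406822-80407071 and Cox8a on the minus strand at chr19:7217617-7217866.
Cox6a1: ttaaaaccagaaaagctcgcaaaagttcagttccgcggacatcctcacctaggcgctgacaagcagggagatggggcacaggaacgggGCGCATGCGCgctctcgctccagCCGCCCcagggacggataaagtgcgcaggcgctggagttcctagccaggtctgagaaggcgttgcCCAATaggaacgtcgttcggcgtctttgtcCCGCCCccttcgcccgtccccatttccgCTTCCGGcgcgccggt
Uqcr11: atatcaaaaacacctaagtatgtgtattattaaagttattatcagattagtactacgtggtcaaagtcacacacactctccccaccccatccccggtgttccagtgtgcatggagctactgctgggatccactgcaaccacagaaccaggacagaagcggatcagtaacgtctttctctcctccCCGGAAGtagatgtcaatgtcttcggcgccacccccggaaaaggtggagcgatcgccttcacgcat
Cox8a: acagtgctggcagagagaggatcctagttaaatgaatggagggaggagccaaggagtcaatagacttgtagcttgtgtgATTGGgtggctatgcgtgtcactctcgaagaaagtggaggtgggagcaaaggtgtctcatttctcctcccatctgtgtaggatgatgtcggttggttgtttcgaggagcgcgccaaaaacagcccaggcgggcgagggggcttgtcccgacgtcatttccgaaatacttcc
The motifs searched, on both strands, were GCGCATGC (NRF1), CCGGAAG (ETS family, which includes GABP), AAGATGGC (YY1), AAGGTCA (ERR family), CCAAT (NF-Y) and GGGCGG (SP family). Cox6a1 held an NRF1 motif that matched on both strands in overlapping positions, at -162 and -160 bases from the start, SP motifs at -139 and -44, an NF-Y motif at -74 and an ETS motif at -16. Uqcr11 held an ETS motif at -66 and Cox8a an NF-Y motif at -171. The annotated start is a RefSeq one, and GENCODE transcripts of these genes may begin at other bases.

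RefSeq promoter windows of 300 bases, 250 before and 50 after the start, were matched by symbol for 64 of the 85 members. The NRF1 motif occurred in 10 of the 64, or 15.6%, against 3.05% of all 27025 genes in the table and 5.28% of the tested genes matched. The YY1 motif occurred in 14.1% of members, 3.19% of all genes and 4.48% of tested genes. For the ETS motif the shares were 25%, 9.93% and 17%, and for the ERR motif 12.5%, 5.38% and 4.25%. The NF-Y motif was in 43.8% of members, 41.1% of all genes and 42.1% of tested genes. The SP motif was in 40.6% of members and 38.2% of all genes but in 64.7% of tested genes. Of the 14 called members with a window, 4 held NRF1, 6 ETS, 1 YY1 and 1 ERR, and of the 50 others 6, 10, 8 and 7 did. The GC content of the window had a median of 57.4% in the called and 57.8% in the other members. A match describes the letters of the window and does not show that a factor binds there.

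In complex I, 8 of 37 members fell in Smarcb1-labelled against wild-type thyroid. Of the 7 core subunits, which carry the redox centres, only Ndufs7 was called, and of the 28 supernumerary subunits 7 were. Ndufs7, an iron-sulfur subunit of the quinone-binding module, measured 54.7, 56.8 and 67.4 CPM in wild type, 57.4, 59.0 and 76.8 in Arid2-labelled and 18.6, 32.4 and 23.7 in Smarcb1-labelled libraries. All 3 Smarcb1-labelled libraries lay below the other 6. Against wild type its log2 fold change was -1.26 (SE 0.20, edgeR adjusted p = 0.0116), and without Smarcb1-labelled replicate 3 it was not called.

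Ndufa7, a supernumerary subunit of the matrix arm, had the smallest adjusted p of all members. It measured 80.3, 92.7 and 91.4 CPM in wild type, 72.1, 73.5 and 83.5 in Arid2-labelled and 45.6, 51.1 and 43.3 in Smarcb1-labelled libraries, and the Smarcb1-labelled values did not overlap with either group. Against wild type its log2 fold change was -0.92 (SE 0.11, edgeR adjusted p = 0.00371). It was the member called in all 9 fits that each left out 1 library and under all 16 other alternatives. Ndufa13, a membrane-arm subunit first known as the cell death factor GRIM-19, measured 160, 177 and 164 CPM in wild type, 158, 170 and 213 in Arid2-labelled and 83.5, 99.2 and 68.9 in Smarcb1-labelled libraries. Its 3 Smarcb1-labelled values were again the lowest of the 9, and the log2 fold change was -0.99 (SE 0.16, edgeR adjusted p = 0.0107).

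Ndufb7, of the membrane arm, had a log2 fold change of -1.13 (SE 0.18, edgeR adjusted p = 0.0113), and Ndufa2, of the NADH module, of -0.95 (SE 0.16, adjusted p = 0.0136). The values were -0.98 for Ndufa11, -0.89 for Ndufb6 and -0.75 for Ndufa12, with edgeR adjusted p = 0.0139, 0.027 and 0.0375. Ndufb6 and Ndufa12 depended on single libraries: they were called in 4 and 3 of the 9 fits that left out 1 library. The NADH-binding flavoprotein subunit Ndufv1 had a value of -0.61 (adjusted p = 0.122) and its partner Ndufv2 of -0.10. Core subunits Ndufs1 and Ndufs3 had values of 0.11 and -0.20, and Ndufs8 had -0.59 (adjusted p = 0.0588).

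The complex I members without a call included the most abundant per length, Ndufa4, which is placed there by its symbol only. It stood at 482 ± 79.2 CPM per kb of transcript (SD, n = 3) in wild type, and its log2 fold change was -0.06. Its paralog Ndufa4l2, also placed by symbol, was the least abundant per length, at 5.83 ± 0.789 CPM per kb. Ndufa4l2 had a value of -0.92 (SE 0.29, edgeR adjusted p = 0.0804). Of the complex I members not placed by symbol alone, Ndufb8 was the most abundant per length, at 352 ± 64.95 CPM per kb, and had a value of -0.57 (edgeR adjusted p = 0.123). Ndufb2 was the complex I member with the highest value, at 0.47 (SE 0.17, adjusted p = 0.11), from 11.7, 9.45 and 12.99 CPM in wild type to 18.8, 13.2 and 15.3 CPM. Ndufs5 differed widely between wild-type libraries, at 9.80, 1.54 and 24.2 CPM, so that its fold change of -0.27 has an SE of 0.68. Small subunit genes such as these can have near-identical processed copies in the genome, which were not examined here, so their counts are uncertain where reads could fall on a copy.

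No subunit of complex II, the succinate dehydrogenase that is also an enzyme of the citrate cycle, was called by edgeR in any of the 3 comparisons, and DESeq2 called Sdhb lower against Arid2-labelled. Against wild type the Smarcb1-labelled log2 fold changes were -0.01 for the flavoprotein subunit Sdha, -0.47 for the iron-sulfur subunit Sdhb, 0.06 for Sdhc and -0.22 for Sdhd. Sdhb measured 102, 95.2 and 155 CPM in wild type, against 75.6, 98.0 and 80.8 in Smarcb1-labelled libraries, so the groups overlapped (edgeR adjusted p = 0.178). In the Arid2-labelled libraries it measured 124, 119 and 166 CPM, all above the Smarcb1-labelled ones (log2 fold change -0.68, edgeR adjusted p = 0.0544), and edgeR called it without wild-type replicate 3, without Smarcb1-labelled replicate 2 or without the 2 libraries with thymocyte markers. Per length Sdha was the highest of the 4, at 137 ± 34 CPM per kb in wild type (SD, n = 3), and Sdhc the lowest, at 36.5 ± 4.93.

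Complex III held the largest log2 fold change of the set between Smarcb1-labelled and wild-type thyroid. Uqcrq, Uqcr10 and Uqcr11, 3 small supernumerary subunits, were called lower, and the other 6 members were not called. Uqcrq measured 83.3, 82.1 and 129 CPM in wild type, 80.5, 84.7 and 125 in Arid2-labelled and 28.8, 42.3 and 30.7 in Smarcb1-labelled libraries. The means were 98.2 ± 26.9 and 33.9 ± 7.33 CPM (SD, n = 3) in wild type and Smarcb1-labelled thyroid, and the log2 fold change was -1.53 (SE 0.25, edgeR adjusted p = 0.0111). Wild-type replicate 3 and Arid2-labelled replicate 3 stood above the rest of their groups.

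Uqcr11 measured 97.3, 106 and 133 CPM in wild type, against 44.1, 61.6 and 41.3 in Smarcb1-labelled libraries, and Uqcr10 at 89.6, 92.2 and 133 CPM and at 49.6, 57.9 and 43.7 CPM. Neither gene's groups overlapped. The log2 fold changes were -1.20 (SE 0.20) and -1.06 (SE 0.21), with edgeR adjusted p = 0.0139 and 0.0213. The call of Uqcrq and Uqcr11 was lost without Smarcb1-labelled replicate 3, and that of Uqcr10 without it, without Smarcb1-labelled replicate 1 or without wild-type replicate 3. The redox subunits Cyc1 (cytochrome c1) and Uqcrfs1 (the Rieske iron-sulfur protein) had values of -0.51 and -0.47, with overlapping groups. The hinge protein gene Uqcrh, at 374 ± 66.01 CPM per kb in wild type the most abundant of the complex per length, had a value of 0.10, and Uqcrb 0.11. Uqcrc1 and Uqcrc2, the large core proteins, had values of -0.52 (edgeR adjusted p = 0.274) and -0.03.

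**Figure D2:**
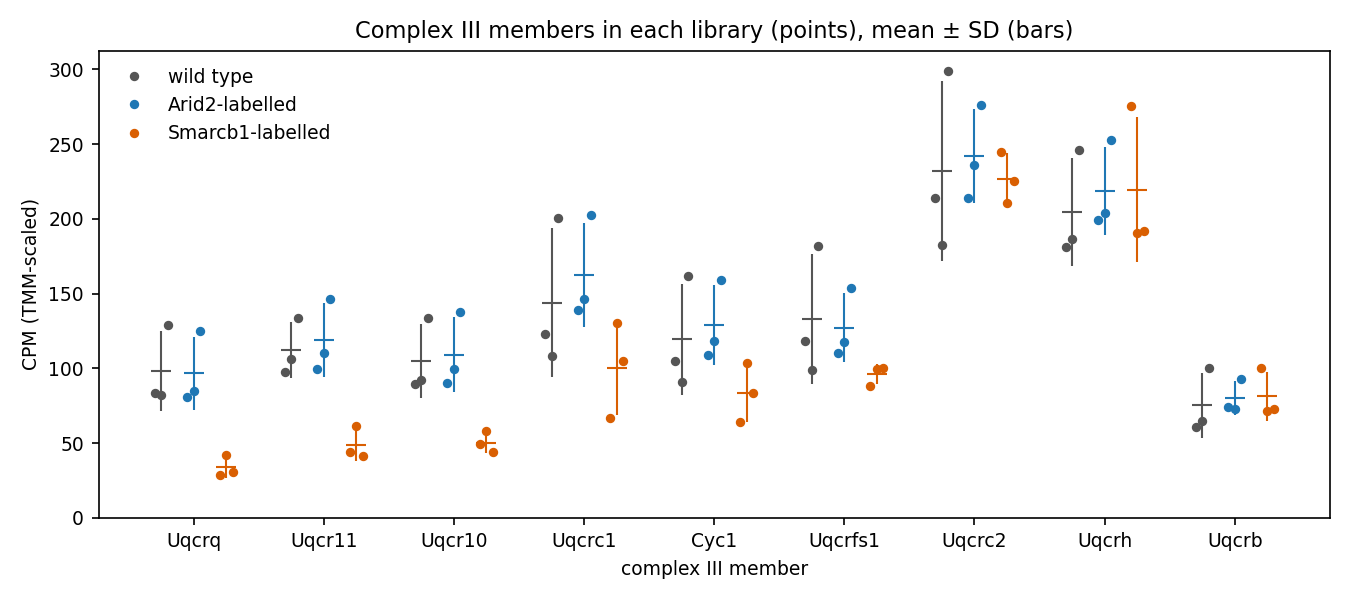
Level (y axis, TMM-scaled CPM) of the 9 complex III members in each of the 9 libraries, with the mean (horizontal bar) and SD (vertical bar) of each group. For Uqcrq, Uqcr11 and Uqcr10 all 3 Smarcb1-labelled points lie below all others, and for the other 6 members the Smarcb1-labelled and wild-type points overlap.

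In complex IV, cytochrome c oxidase, 3 of 15 tested members fell in Smarcb1-labelled thyroid and all 15 values were negative. Cox8a, the ubiquitous isoform of the small subunit 8, measured 205, 226 and 264 CPM in wild type, 195, 215 and 270 in Arid2-labelled and 125, 122 and 114 in Smarcb1-labelled libraries. The Smarcb1-labelled libraries were the lowest and lay close together, and the log2 fold change was -0.94 (SE 0.14, edgeR adjusted p = 0.0095). Cox6a1, the ubiquitous isoform of subunit 6a, measured 151, 165 and 248 CPM in wild type, against 77.4, 99.9 and 89.2 in Smarcb1-labelled libraries. Its groups did not overlap, and its log2 fold change was -1.08 (SE 0.21, edgeR adjusted p = 0.0214). Cox5a, a subunit of the matrix face, had a value of -0.84 (SE 0.22) with an adjusted p of 0.0487, and it was called in 2 of the 9 fits that left out 1 library. Cox5b and Cox4i1 had values of -0.70 and -0.54, with edgeR adjusted p = 0.0537 and 0.0989. Cox7a2, Cox7b and Cox6b1 had values of -0.07, -0.06 and -0.25.

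Several complex IV subunits have isoforms for particular tissues, and Cox4i2, Cox6b2 and Cox6a2 were low next to the ubiquitous ones. Per length, Cox4i2 made up 0.624% to 0.868% of the subunit 4 transcripts over the 9 libraries, and the testis isoform Cox6b2 1.41% to 2.85% of subunit 6b. The heart and muscle isoform Cox6a2 ranged from 1.12% to 11.9% of subunit 6a, and its level varied between libraries beside the skeletal muscle markers. Cox6a2 measured 24.4, 3.76 and 3.35 CPM in wild type and 18.2, 7.31 and 31.8 CPM in the Arid2-labelled libraries, where the summed skeletal muscle markers stood at 1344, 26.5 and 511 CPM and at 1308, 502 and 2124 CPM. Smarcb1-labelled values were 6.39, 14.5 and 1.71 CPM for Cox6a2 and 431, 1294 and 116 CPM for the muscle markers. The part of muscle tissue in the Cox6a2 level was not tested. The isoforms Cox7a1 and Cox8b, left out of the set by its rule, ranged from 7.04% to 33.1% of subunit 7a and from 12.1% to 43.5% of subunit 8. Both were highest in wild-type replicate 3 and Arid2-labelled replicate 3, the libraries highest in Ucp1. Cox7b2 and the testis isoform Cox8c, with 3 and 4 counts over all 9 libraries, were too low to test. The assembly protein gene Cox7a2l had a value of -0.11 and the endoplasmic reticulum gene Cox4nb of -0.27. Neither was called by edgeR, and DESeq2 called Cox4nb.

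In complex V, the ATP synthase, 2 of 17 tested members fell, Atp5d and Atp5l. Atp5d, the delta subunit of the F1 head's central stalk, measured 146, 153 and 177 CPM in wild type, 134, 136 and 178 in Arid2-labelled and 56.3, 91.9 and 67.5 in Smarcb1-labelled libraries. The Smarcb1-labelled libraries lay below the other 6, and the log2 fold change was -1.14 (SE 0.19, edgeR adjusted p = 0.0133). Atp5l, subunit g of the membrane part, measured 15.6, 17.4 and 17.8 CPM in wild type, against 10.3, 12.0 and 9.77 in Smarcb1-labelled libraries, with a value of -0.66 (SE 0.14, edgeR adjusted p = 0.0278). It was called in 3 of the 9 fits that left out 1 library, and its paralog Atp5l2, with 48 counts in all, was not tested. The catalytic subunits Atp5a1 and Atp5b had values of -0.17 and -0.16. Atp5b was the most abundant member of the whole set per length, at 497 ± 122 CPM per kb in wild type (SD, n = 3).

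Of the 3 genes for the same subunit c of the rotor ring, Atp5g3 gave 68.4% to 74.2% of the transcripts per length over the 9 libraries, Atp5g1 15.6% to 20.7% and Atp5g2 8.72% to 15.7%. Their Smarcb1-labelled log2 fold changes against wild type were -0.18, -0.36 and -0.43, and none was called by edgeR. DESeq2 called Atp5g2, as did edgeR without Smarcb1-labelled replicate 2. The stalk subunits Atp5h and Atp5j had values of 0.14 and 0.28, and Atp5s, coupling factor B, of 0.45 (SE 0.15, edgeR adjusted p = 0.0939). Atp5s measured 9.55, 9.68 and 9.46 CPM in wild type, against 15.3, 11.5 and 12.2 in Smarcb1-labelled libraries, which did not overlap. Atp5s was the lowest tested member of complex V per length, at 6.44 ± 0.0720 CPM per kb in wild type.

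Summed over members, the 5 complexes took 0.916%, 0.958% and 1.25% of the counts in wild type, 1.0%, 0.971% and 1.32% in the Arid2-labelled and 0.860%, 0.920% and 0.769% in the Smarcb1-labelled libraries. Smarcb1-labelled replicate 2 and wild-type replicate 1 were almost level, so the summed shares of the groups overlapped. For complexes I, III and IV they did not. The complex IV shares were 0.160%, 0.173% and 0.219% in wild type and 0.144%, 0.142% and 0.119% in the Smarcb1-labelled libraries. For complex V the Smarcb1-labelled replicate 2, at 0.330%, stood above wild-type replicates 1 and 2, at 0.309% and 0.310%.

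**Figure D3:**
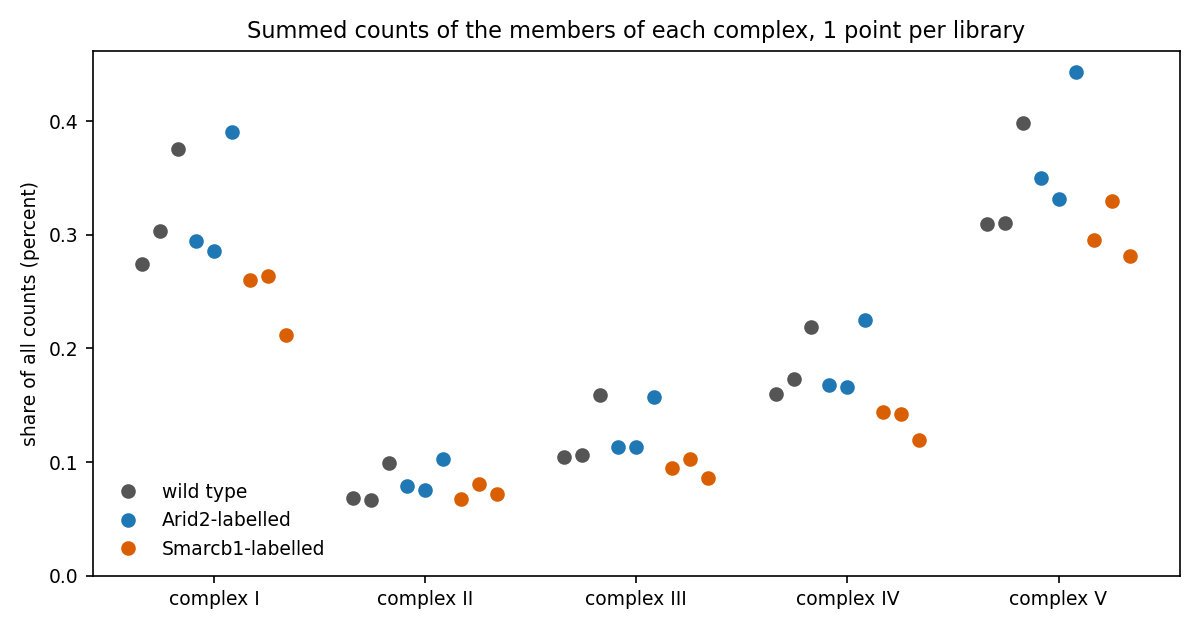
Share of all counts (y axis, percent) taken by the summed members of each complex, 1 point per library. The highest points of each complex are wild-type replicate 3 and Arid2-labelled replicate 3, and in complexes I, III and IV the 3 Smarcb1-labelled points are the lowest.

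Against the Arid2-labelled libraries, 22 of the 82 members fell in Smarcb1-labelled thyroid and 0 rose. These were 26.8% of the members, and 9.32% of all genes tested were called lower and 6.95% higher. The median was -0.39, against 0.00 over all genes tested, and in 46 members, 56.1%, the groups did not overlap with Smarcb1-labelled the lower, which held for 20.5% of all genes tested. This comparison shares its Smarcb1-labelled libraries with the one against wild type, and 15 members were called in both, 93.8% of the one list and 68.2% of the other. By edgeR, Atp5l was called only against wild type, and DESeq2 called it in both. Ndufs8, Ndufa8, Ndufa4l2, Ndufb10, Cox4i1, Cox5b and Atp5g2 were called by edgeR only against the Arid2-labelled libraries. Whether the comparisons differ for these members was not tested. Ndufb10, a membrane-arm subunit, measured 73.4, 73.6 and 91.9 CPM in wild type, 85.8, 86.8 and 114 in Arid2-labelled and 62.6, 70.3 and 67.0 in Smarcb1-labelled libraries. Its Smarcb1-labelled values were below both other groups, with log2 fold changes of -0.52 (SE 0.14, edgeR adjusted p = 0.0395) against Arid2-labelled and -0.26 (adjusted p = 0.261) against wild type.

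No member was called in Arid2-labelled against wild-type thyroid by the edgeR test. Of all genes tested 0.322% were called lower and 0.234% higher, so a set of 82 would hold few calls at that rate. The members' median was 0.07, against 0.02 over all genes, with 55 positive and 27 negative values. An unadjusted p under 0.05 was found for 1 of the 82 members and for 2541 of the 17079 genes tested. The member was Ndufb2, with a log2 fold change of 0.38 (SE 0.17, edgeR adjusted p = 0.334). Its Arid2-labelled values were 14.7, 14.8 and 15.0 CPM, just above the highest wild-type value of 12.99. The next smallest unadjusted p values in each complex belonged to Ndufa7 (-0.21), Sdhb (0.21) and Sdhd (0.16), Uqcrc1 (0.18) and Uqcrh (0.10), Cox4nb (-0.15) and Cox6b2 (0.34), and Atp5l (-0.26) and Atp5g2 (0.22), given as log2 fold changes. Ndufs5 and Cox6a2 had values of 0.77 and 0.86 with SEs of 0.68 and 0.93.

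The set as a whole was highest in the 2 libraries with the most Ucp1. For each library the members' deviations from their own mean over the 9 libraries were taken on the log2 scale. Their median was -0.05, -0.04 and 0.37 in wild type, 0.03, 0.08 and 0.37 in the Arid2-labelled and -0.16, -0.17 and -0.30 in the Smarcb1-labelled libraries. In wild-type replicate 3, 76 of 82 members stood above their own mean, and in Arid2-labelled replicate 3, 81 did. Both are almost without Pth. Over all 10 brown fat markers the summed level was 396, 299 and 1476 CPM in wild type, 635, 773 and 1221 CPM in the Arid2-labelled and 248, 476 and 485 CPM in the Smarcb1-labelled libraries, with Cidea at 15.1 to 148 CPM and Elovl3 at 0.178 to 12.4 CPM. Over the 4 parathyroid markers it was 1971, 9204 and 41.0 CPM, 3107, 2688 and 40.1 CPM, and 21860, 12130 and 16680 CPM, with Gcm2 at 0 in wild-type replicate 3 and Arid2-labelled replicate 3.

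Some markers of follicular and other cells were called in the same comparison against wild type. There, 5.74% of all genes tested were called lower and 2.15% higher. Of 7 tested follicular markers 1 was called, Foxe1, and the median of the 7 was -0.255. The thyroid transcription factor gene Foxe1 measured 200.9 to 278.5 CPM in wild type and 44.7 to 61.8 CPM in Smarcb1-labelled libraries (log2 fold change -2.19, SE 0.19, edgeR adjusted p = 0.00102). Of 4 erythroid markers 2 fell, Hba-a1 at -4.01 and Hbb-b1 at -2.51, and the summed level of the 4 was 296 to 1394 CPM in wild type and 100.1 to 190 CPM in the Smarcb1-labelled libraries. Of 5 fibroblast markers 2 fell, Col1a1 at -1.06 and Col1a2 at -0.57, with sums of 2297 to 2611 CPM and 1620 to 2185 CPM. Of 4 endothelial markers Emcn rose, at 0.58, with sums of 275 to 379 CPM and 331 to 501 CPM. The part of these cells in the members' result was not tested.

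Without those 2 libraries, an alternative added once their levels were known, 12 members were called lower against wild type, all among the 16, and 10 of the 22 against Arid2-labelled. These were 14.6% and 12.2% of the members tested, against 2.08% and 1.36% of all genes called in either direction. With a brown fat covariate (Ucp1, Cidea and Elovl3), also added later, 13 of the 16 were called against wild type, or 15.9% of members against 4.27% of all genes. Against Arid2-labelled 0 of the 22 were called by edgeR (17 members at an unadjusted p under 0.05), where the calls over all genes went from 2779 to 40. Ndufa13 was then at -1.05 and Uqcrq at -0.98, from -1.10 and -1.51 without the covariate. With a parathyroid covariate (Pth, Gcm2 and Casr), 3 of the 16 were called, Cox8a, Ndufa7 and Uqcrq, with log2 fold changes of -0.74, -0.85 and -1.10, and 1 of the 22, Uqcrq. The calls over all genes went from 1349 to 200 against wild type, so that 3.66% of members and 1.17% of all genes were called. Ndufa13 and Ndufa11, no longer called, were at -0.90 and -0.89, from -0.99 and -0.98. The members' median against wild type was then -0.06. The Smarcb1-labelled libraries all stand high in parathyroid markers, so the covariate and the group are partly confounded, and the part of parathyroid and brown fat tissue in the result cannot be told apart from the group by these libraries.

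**Figure D4:**
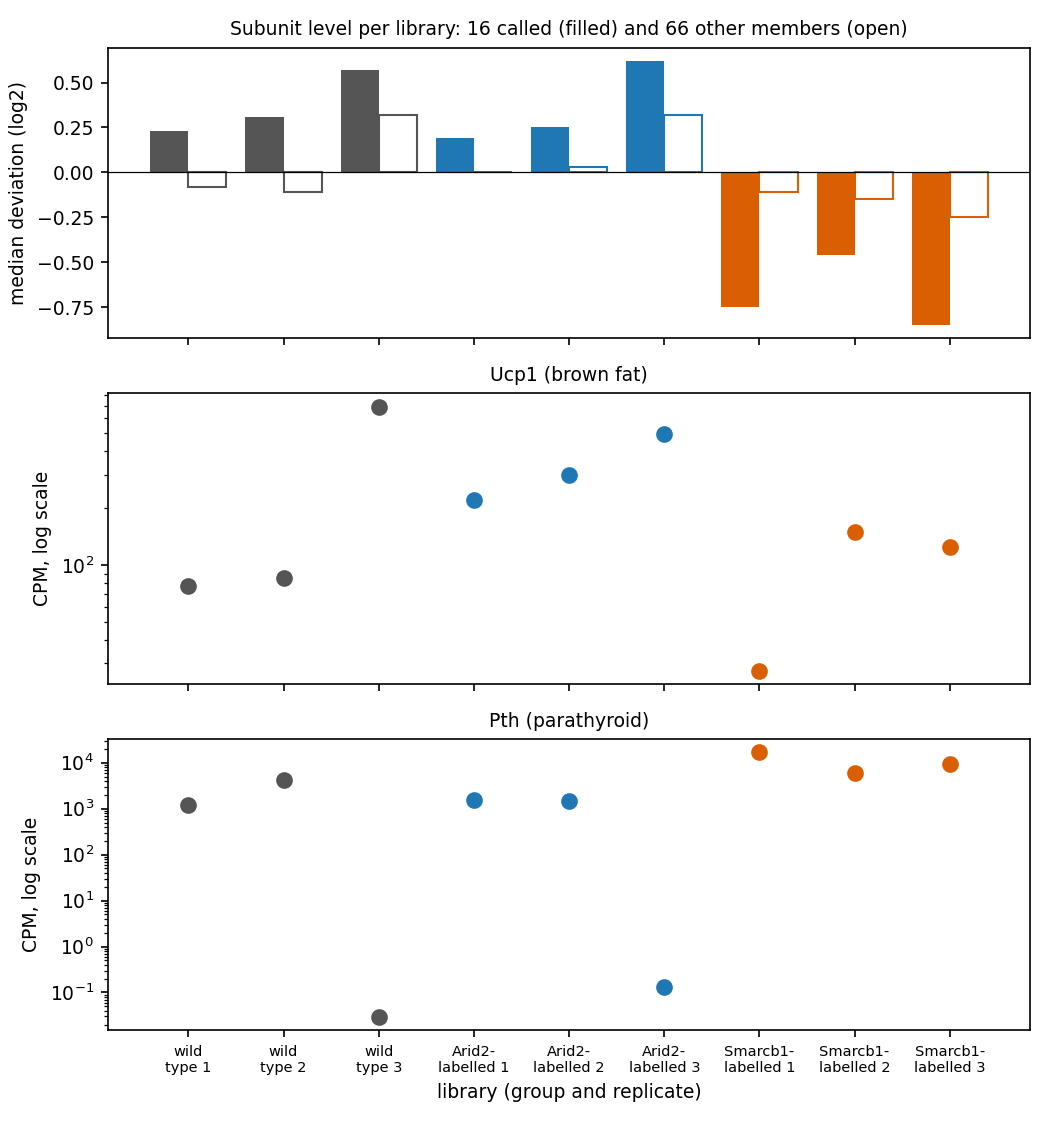
Top: median log2 deviation (y axis) of the 16 members called against wild type (filled bars) and of the 66 others tested (open bars) in each library. Middle and bottom: Ucp1 and Pth (CPM, log axes). The filled bars of the Smarcb1-labelled libraries stand at -0.75, -0.46 and -0.85, the open bars at -0.11, -0.15 and -0.25, and the 16 were chosen by this contrast.

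On the median, the members that fell had transcripts of higher GC content and shorter length than the others. GC content had a median of 58.0% over the 16 called and 51.5% over the 66 others, and transcript length a median of 571.5 and 870 nt, in the GENCODE models of GRCm38. Across the 82 members, Spearman's rho of GC content with the log2 fold change against wild type was -0.68, and across 16617 tested genes it was -0.57. These are correlations across genes of the same libraries, which are not independent replicates. Members with at least 56% GC had a median fold change of -0.93 and 9 of 18, or 50%, were called lower, while all genes in that range had a median of -0.43 with 21.0% called lower. Under 48% GC the members had a median of -0.04 with 1 of 14 called, Atp5l, and the genes a median of 0.28 with 0.422% called lower. In the ranges from 48% to 52% and from 52% to 56% the members' medians were -0.17 and -0.36 and those of the genes 0.10 and -0.12. In each of the 4 ranges the members' median was thus below that of all genes.

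When each library's trend over GC content was removed, 7 of the 16 were still called lower, or 8.54% of the members against 2.04% of all genes called in either direction (339 of 16617, from 1349 of 17079): Atp5l, Ndufa2, Ndufa7, Ndufb6, Ndufb7, Ndufs7 and Uqcrq. Their values were then -0.72 for Ndufa7, -0.66 for Ndufs7 and -1.17 for Uqcrq. The members' median was -0.29, as without the removal, against -0.01 over all genes. The 9 that were not called had values from -0.99 for Cox5a to -0.38 for Ndufa13, with Cox8a at -0.48, Atp5d at -0.50, Ndufa11 at -0.56, Cox6a1 at -0.62 and Uqcr11 at -0.74. With trends over GC content and length removed together, 5 members were called, Atp5l, Ndufa2, Ndufa7, Uqcrq and, outside the 16, Cox4nb. Whether the GC trend comes from library preparation or from the tissue was not tested.

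**Figure D5:**
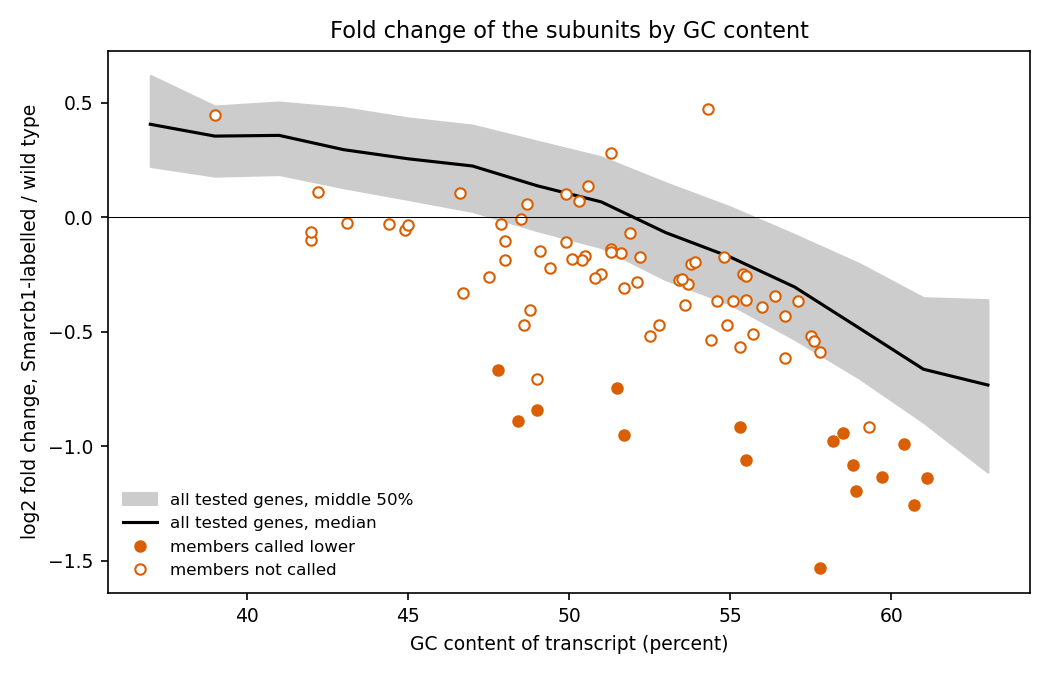
Log2 fold change of Smarcb1-labelled against wild type (y axis) by GC content of the transcript (x axis, percent) for the 82 members, filled where called lower, over the median (line) and middle 50% (band) of all tested genes in bins of GC content. The line falls with GC content, and most members lie below it.

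Atp5d, Ndufs7 and Uqcr11 lie near each other in the RefSeq gene order, on chromosome 10, with 25 annotated genes from the first to the last of them. All 16 tested genes among these that are no members also had negative fold changes against wild type, with a median of -0.64, and 3 were called lower: Cirbp, Dazap1 and 2310011J03Rik. Of all genes tested, 5.74% were called lower. The tested genes of the stretch had a median GC content of 59.7%, and of all genes with at least 56% GC 21.0% were called lower, with a median of -0.43. With the GC trend removed the median of the 16 was -0.08 and 0 were called by edgeR.

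Genes that build, feed or regulate the complexes were read from the same fit. Over all genes tested, 5.74% were called lower and 2.15% higher against wild type, and 9.32% and 6.95% against Arid2-labelled. Of 27 tested assembly factors, 4 were called lower against wild type and 0 higher, with a median of 0.01: the complex IV factors Cox11, Cox16 and Cox17, which serve copper delivery and assembly, at -1.30, -1.40 and -0.66, and the complex I factor Ndufaf3 at -0.83. Against Arid2-labelled the same 4 were called lower and Ndufaf4, at 0.61, higher. None of the 17 genes of the citrate cycle and pyruvate dehydrogenase was called against wild type by edgeR (1 at an unadjusted p under 0.05), while 15 of the 17 values were negative with a median of -0.21. Mdh2, mitochondrial malate dehydrogenase, fell against Arid2-labelled and stood at -0.58 (edgeR adjusted p = 0.0587) against wild type. Of 16 genes of electron carriers and coenzyme Q synthesis 0 were called against wild type (2 at an unadjusted p under 0.05), with a median of -0.17, and against Arid2-labelled Etfb, a subunit of the electron transfer flavoprotein, fell.

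Among 14 tested nuclear regulators of mitochondrial genes, 2 fell and 1 rose in Smarcb1-labelled against wild-type thyroid. Of all genes tested, 5.74% were called lower and 2.15% higher, and a list this short holds few calls at such rates. Esrra, the nuclear receptor ERR alpha, measured 29.0, 31.2 and 38.1 CPM in wild type, against 11.0, 18.6 and 14.8 in Smarcb1-labelled libraries (log2 fold change -1.15, SE 0.19, edgeR adjusted p = 0.0134). Its relative Esrrg stood at 3.03, 8.99 and 3.14 CPM and at 17.8, 16.7 and 17.9 CPM (1.79, SE 0.40, adjusted p = 0.0325). The pair thus moved in opposite directions, with no overlap between the groups in either gene. Such a separation held for 16.7% of all genes tested with Smarcb1-labelled the lower and for 2917 of 17079 with it the higher. In wild type Esrrg was highest in replicate 2, the wild-type library highest in Pth. The part of parathyroid tissue in its level was not tested. Polrmt, the mitochondrial RNA polymerase, fell by 0.91 on the log2 scale (SE 0.18, edgeR adjusted p = 0.0217). The coactivator gene Ppargc1a had a value of 0.17.

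No subunit encoded in mitochondrial DNA was called by edgeR. Of 13, the table held 7 at testable levels, and their values against wild type were positive, from 0.04 to 0.32 in Smarcb1-labelled and from 0.04 to 0.25 in Arid2-labelled thyroid, with 0 called and 0 at an unadjusted p under 0.05 in edgeR. The highest, mt-Co1, measured 13560, 11660 and 16280 CPM in wild type, against 18210, 15980 and 15960 in Smarcb1-labelled libraries, which overlapped. The largest value, 0.32, was that of mt-Nd5, at 3414, 2712 and 3766 CPM in wild type and 4613, 3790 and 3984 CPM in Smarcb1-labelled libraries, which did not overlap (edgeR adjusted p = 0.235). The 6 others were listed at no more than 0.128 CPM in any library. The 13 together took 3.25% to 4.76% of the counts of a library.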

How the data were processed

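Gene-level read counts of 9 mouse thyroid libraries were used as the authors deposited them, whole numbers without normalization. TRIzol RNA and a TruSeq RNA kit were used, per the labels' protocols. STAR 2.4, HTSeq 0.6.1, DESeq2 and the build mm9 appear, without roles, in the submitters' processing notes; whether counting used strand is not given in the sources used here, so overlapping and antisense genes cannot be told apart.

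The fit over all 9 libraries used edgeR 4.0.16 in R 4.3.3 (quasi-likelihood F test, TMM, filterByExpr, 6 residual degrees of freedom), with Benjamini-Hochberg adjustment over 17079 genes. Standard errors come from the fold and its F statistic. Alternatives were DESeq2 1.42.0, voom of limma 3.58.1, other scalings and filters, covariates of tissue markers, splines of 5 degrees of freedom over GC content and length, and leaving out libraries. The fit was tested on simulated counts with 200 changed genes: between the Smarcb1-labelled and wild-type libraries, it recovered 48 of 100 with a 2-fold change and 90 of 100 with a 4-fold change over 16953 genes. GC content and length came from GENCODE M21 (GRCm38), the median-length principal transcript, for 97.3% of tested genes and all 85 members. Intervals and p-values cover neither PCR duplicates nor shared animals.

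The members and lists were chosen with earlier results of these data known. Named members are those called in any comparison, the 2 with the smallest unadjusted p per complex and comparison, the isoform sets, the highest and lowest per length in each complex, and up to 3 called genes of each pathway list; others named were chosen after their values were seen. Values of 1 member are not reported here, and it is not drawn in the plot of fold changes.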

Additional observations from a re-analysis of the deposited data

Results flagged for a closer look

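The difference between the Smarcb1-labelled and the Arid2-labelled libraries, which is the difference between their contrasts with the shared wild type, passed an edgeR adjusted p of 0.05 in 22 members, all lower in Smarcb1-labelled. The log2 differences in complex I were -1.37 for Ndufs7, -1.20 for Ndufb7, -1.10 for Ndufa13, -1.08 for Ndufa4l2, -0.99 for Ndufb6, -0.87 for Ndufa2, -0.81 for Ndufa11, -0.78 for Ndufa12, -0.73 for Ndufa8, -0.71 for Ndufa7, -0.66 for Ndufs8 and -0.52 for Ndufb10. In complex III they were -1.51 for Uqcrq, -1.28 for Uqcr11 and -1.12 for Uqcr10. In complex IV they were -1.08 for Cox6a1, -0.91 for Cox8a, -0.91 for Cox5a, -0.83 for Cox5b and -0.65 for Cox4i1, and in complex V -1.05 for Atp5d and -0.65 for Atp5g2. Without Arid2-labelled replicate 3, the second highest library in Ucp1, 7 members were called, or 8.54% of those tested. The calls over all genes in either direction went from 2779 to 395, or 2.27%, in that fit.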

How the results depend on the processing

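Against wild type, Smarcb1-labelled thyroid had 16 members called. The count was 26 with the DESeq2 Wald test, 7 with the GC trend removed, 5 with GC and length trends removed, 3 with the parathyroid covariate (median log2 fold change -0.06) and 2 at an adjusted p under 0.01. Over all genes the calls in either direction were 1349, and 2777, 339, 406, 200 and 192 under these alternatives. Leaving out 1 library gave 5 to 19 calls, the fewest without Smarcb1-labelled replicate 3. Over all genes the same fits gave 344 to 2538 calls, the fewest again without that replicate. Cox8a, Ndufa2, Ndufa7, Ndufa11 and Ndufa13 were called in all 9 of those fits. Against Arid2-labelled, the 22 calls became 11 with the GC trend removed, 12 with GC and length, 1 with the parathyroid covariate (median -0.104), 13 with the skeletal muscle covariate, 0 with the brown fat covariate (median -0.134), 10 without the 2 libraries highest in brown fat markers and 7 at an adjusted p under 0.01. Over all genes the 2779 calls became 1084, 1244, 149, 1015, 40, 237 and 324. The brown fat alternatives were chosen after seeing the data. Leaving out 1 library gave 7 to 26 calls, with 7 without Arid2-labelled replicate 3, 10 without Smarcb1-labelled replicate 3, 12 without Smarcb1-labelled replicate 1 and 13 without Arid2-labelled replicate 2. Over all genes such fits gave 395 to 4411 calls, with 395, 956, 1069 and 800 in the same order. The other alternatives run kept both member counts, 16 and 22, within 1.5 times, but the calls over all genes varied more. With only the 6 libraries compared, 486 genes were called against wild type and 1348 against Arid2-labelled. Without the 2 libraries with thymocyte markers these were 2166 and 3760, and DESeq2 called 4337 against Arid2-labelled. No called member changed sign under any alternative, and 0 members were called for Arid2-labelled against wild type in all of them. No paired analysis was possible because the labels give no replicate numbers. The 3 untested members had too few counts.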
